A study of Homo sapiens with 6 samples.

Results

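ZFP36, ZFP36L1, ZFP36L2, ELAVL1, KHSRP, TIA1 and TIAL1 are 7 genes for proteins that bind AU-rich elements in messenger RNA. They were taken by their symbols from a deposited expression table of 27420 genes, in which each symbol occurs once, so 7 of 27420 genes are described. The table holds RNA-seq values of A673 and SKNMC, both established Ewing sarcoma cell lines. Cells of either line received DMSO, the solvent, or THZ1 at 50 nM or 200 nM over 6 h, and the labels list 1 sample for each of the 6 conditions. The table calls its values averages without saying over what, and each column is described here as 1 library. THZ1 is a covalent inhibitor of CDK7, the kinase of the general transcription factor TFIIH that phosphorylates RNA polymerase II. The study compared THZ1 with DMSO to see which transcripts are sensitive to the inhibitor. The labels name no genetic change in any of the 6 conditions, and each line comes from a single tumour.

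Levels are FPKM (fragment counts per unit of transcript length, normalised to the library's mapped fragments), as the authors deposited them. With 1 library per condition the spread between replicates is unknown, so differences are described and carry neither a test nor an error. Changes are log2 ratios of FPKM with 1 added, which understate the change of genes with low levels. A gene was called changed where this ratio reached 2-fold, and active where its level was above 1 FPKM in the DMSO library of its line. All 7 genes were active in both lines. Both THZ1 libraries of a line were compared with the same DMSO library, so an error in that library would touch both. FPKM is a share of each library, and fewer cells of a type and less RNA per cell cannot be told apart in it. A higher FPKM with THZ1 is thus a larger share of the library, and the amount of a message per cell is unknown. The summed FPKM of the THZ1 libraries was between 97.8% and 100.5% of that of their DMSO library. All 7 markers of Ewing sarcoma looked for (CD99, NKX2-2, NR0B1, STEAP1, PRKCB, FLI1 and EWSR1) were above 1 FPKM in all 6 libraries. Of the leukocyte markers, CD3E was listed at 0 in all 6 libraries, whereas PTPRC was between 7.90 and 13.1 FPKM in SKNMC and at most 0.0291 FPKM in A673. Its part in the members' values was not tested. Of the epithelial markers, EPCAM and CDH1 were below 1 FPKM throughout and KRT18 was between 73.8 and 143.1 FPKM. The endothelial markers CDH5 and VWF were below 1 FPKM in all 6 libraries.

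AU-rich elements are stretches in the 3′ untranslated region (3′ UTR) of short-lived messages, such as those of cytokines, growth factors and immediate early genes. ZFP36, also called tristetraprolin, and its relatives ZFP36L1 and ZFP36L2 bind them through tandem zinc fingers and recruit the CCR4-NOT deadenylase, after which the message is degraded. ELAVL1 (HuR) competes for similar sequences and usually stabilizes the message, KHSRP promotes decay and also acts in splicing, and TIA1 and TIAL1 repress translation, enter stress granules and regulate splicing. Messages of the ZFP36 family carry AU-rich elements of their own, and ZFP36 is known to bind its own message.

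The sites are shown first because they are motifs of AU-rich elements, the class of sequence that the members bind. The sense strand of each 3′ UTR was searched for the pentamer ATTTA, the heptamer TATTTAT and the nonamer TTATTTATT, in the Ensembl canonical transcript of GENCODE release 44 on GRCh37, the build of the deposited values. The shorter motifs lie within the longer ones. Each line below gives 30 bases of the 3′ UTR around the first copy of the longest motif found in that gene, with the motif in capitals.
ZFP36: tatgacgactTTATTTATTctaatatgatt
ZFP36L1: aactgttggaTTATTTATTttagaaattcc
ZFP36L2: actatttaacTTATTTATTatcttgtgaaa
ELAVL1: atttatgtatTTATTTATTgaagtgtgaaa
TIA1: cagatacaatgTATTTATttaaaagattca
TIAL1: gaaaatgaaaaTATTTATtttaaaaattga
KHSRP: atggtgattgaaATTTAcaaactttgtgtt

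All 3 genes of the ZFP36 family and ELAVL1 held 1 nonamer each, while the longest motif was 1 heptamer in TIA1 and TIAL1 and the pentamer in KHSRP. A nonamer was present in 8.49% of the 18624 genes with such a 3′ UTR, a heptamer in 31.9% and a pentamer in 67.6%. Long 3′ UTRs hold more matches. Among genes whose 3′ UTR length was within 25% of that of the member, the share with a nonamer was 4.78% for ZFP36, 8.84% for ZFP36L1, 9.12% for ZFP36L2 and 21.0% for ELAVL1. A heptamer was present in 56.9% of genes of the length of TIA1 and in 45.1% of those of the length of TIAL1, so these matches are common. The 3′ UTR of ZFP36 held 5 pentamers in 708 bases, that of ZFP36L1 8 in 1871 bases and that of ZFP36L2 5 in 1917 bases. ELAVL1 held 13 pentamers in 4910 bases and TIA1 13 in 3275 bases, TIAL1 held 5 in 2200 bases, and KHSRP, the sparsest, 1 in 1922 bases. The nonamers are exonic, at chr19:39899836-39899865 on the plus strand for ZFP36, and on the minus strand at chr14:69254793-69254822 for ZFP36L1, at chr2:43450586-43450615 for ZFP36L2 and at chr19:8026711-8026740 for ELAVL1 (coordinates of the 30 bases). The median number of pentamers in genes of like length was 1 for ZFP36, 3 for ZFP36L1, 4 for ZFP36L2, KHSRP and TIAL1, 10 for ELAVL1 and 7 for TIA1. A match is a description of the sequence and was not tested for binding.

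With DMSO, the highest of the 7 listed levels was that of KHSRP and the lowest that of ZFP36 in both lines. KHSRP (ENSG00000088247, chromosome 19, 6413359 to 6424805, minus strand, hg19) was at 240.2 FPKM in A673 and 176.0 FPKM in SKNMC. In A673 it was followed by TIAL1 at 81.1, ELAVL1 at 58.8, TIA1 at 43.0, ZFP36L2 at 22.4, ZFP36L1 at 18.2 and ZFP36 at 4.10 FPKM. In SKNMC the order was ELAVL1 at 50.5, TIAL1 at 45.0, TIA1 at 43.9, ZFP36L1 at 24.8, ZFP36L2 at 14.2 and ZFP36 at 3.95 FPKM. ZFP36L1 and ZFP36L2 were listed in opposite order in the 2 lines, as were TIAL1 and ELAVL1. This order is a description of single libraries, since the spread that would separate neighbours is unknown. In A673 with DMSO the level of KHSRP was above that of 97.5% of active genes and that of ZFP36 above 19.5%. Between the DMSO libraries the widest gap was that of TIAL1, with a log2 ratio of -0.84 for SKNMC against A673, and no member differed 2-fold. Of the 10574 genes active in both lines, 6.93% were at least 2-fold lower and 8.96% at least 2-fold higher in SKNMC.

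**Figure D1:**
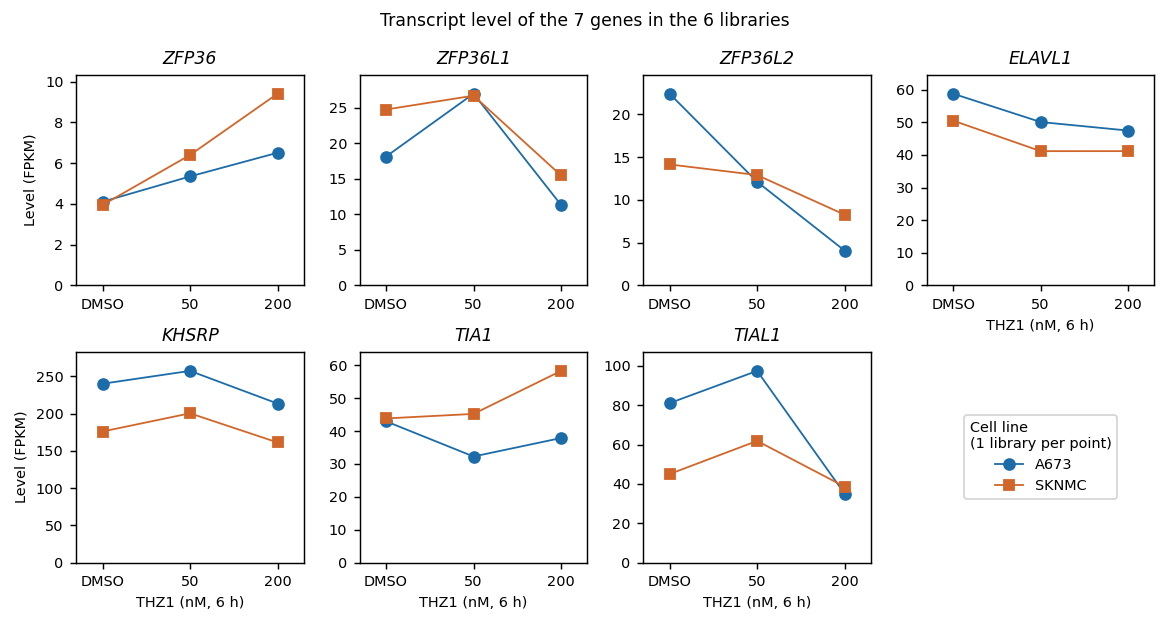
Level in FPKM (y axis, from 0) of each of the 7 genes with DMSO, 50 nM and 200 nM THZ1 (x axis) in A673 (circles) and SKNMC (squares), 1 library per point. ZFP36 was higher at each dose in both lines, ZFP36L2 lower at each dose, and ZFP36L1, KHSRP and TIAL1 were highest at 50 nM in both lines.

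ZFP36 (ENSG00000128016, chromosome 19, 39897453 to 39900052, plus strand) was the one member that was higher with THZ1 in all 4 comparisons, and higher at 200 nM than at 50 nM in both lines. In A673 it was at 4.10 FPKM with DMSO, 5.35 at 50 nM and 6.51 at 200 nM. The SKNMC levels were 3.95 FPKM with DMSO, 6.40 at 50 nM and 9.41 at 200 nM. The 3 values of either line thus followed the dose. Against DMSO, A673 had log2 fold changes of 0.31 (50 nM) and 0.56 (200 nM), and SKNMC of 0.58 and 1.07. Only the last of these reached 2-fold, where 0.462% of the 11896 active genes were at least 2-fold higher. The log2 fold change of ZFP36 was above that of 92.3% of active genes in A673 at 50 nM, 97.9% in A673 at 200 nM, 97.5% in SKNMC at 50 nM and 99.7% in SKNMC at 200 nM. Of the genes active in both lines, 557 of 10574 (5.27%) were, like ZFP36, higher at 50 nM and higher still at 200 nM in both. The share was 17.9% with libraries scaled to the 75th percentile of active genes and 0.303% with the ribosomal protein median, and ZFP36 had the pattern in each case. ZFP36 stayed above its DMSO level under each of 3 other scalings of the libraries, with log2 fold changes from 0.12 to 0.53 in A673 at 50 nM and from 0.55 to 1.60 in SKNMC at 200 nM. Under the scaling to ribosomal protein genes the SKNMC value of 0.55 no longer reached 2-fold. All 3 scalings compare ZFP36 with other messages of the same library. Whether the amount of ZFP36 message per cell rose was not tested.

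ZFP36L1 (ENSG00000185650, chromosome 14, 69254377 to 69263190, minus strand) was higher than with DMSO at 50 nM and lower at 200 nM. Its level in A673 was 18.2 FPKM with DMSO, 27.0 at 50 nM and 11.3 at 200 nM. The SKNMC values were 24.8, 26.7 and 15.5 FPKM. Against DMSO, the log2 fold changes of A673 were 0.55 (50 nM) and -0.63 (200 nM), and those of SKNMC 0.11 and -0.65. The 200 nM level was 62.4% of the DMSO level in A673 and 62.5% in SKNMC, and 38.9% and 44.5% of active genes had a lower log2 fold change. The step from 50 to 200 nM was the larger one, with a log2 change of -1.18 in A673 and -0.75 in SKNMC. The 0.11 in SKNMC at 50 nM became -0.21 when libraries were scaled to ribosomal protein genes, whereas the difference between 50 and 200 nM kept its direction under all 3 scalings, between -1.28 and -1.08 in A673 and between -0.98 and -0.49 in SKNMC.

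ZFP36L2 (ENSG00000152518, chromosome 2, 43449541 to 43453748, minus strand) had the lowest log2 fold change of the 7 genes, in A673 at 200 nM. In A673 it was at 22.4 FPKM with DMSO, 12.1 at 50 nM and 4.07 at 200 nM. The SKNMC levels were 14.2 FPKM with DMSO, 12.9 at 50 nM and 8.27 at 200 nM. All 4 treated libraries were below the DMSO library of their line, as for 52.9% of the 10574 genes active in both lines. Of these 10574 genes, 27.5% were, like ZFP36L2, lower at 50 nM and lower still at 200 nM in both lines. At the lower and the higher dose the log2 fold changes of ZFP36L2 were -0.84 and -2.21 (A673) and -0.12 and -0.71 (SKNMC). With 200 nM, A673 kept 18.1% of its DMSO level, and 2.89% of active genes had a lower log2 fold change, while SKNMC kept 58.4%, with 41.2% of active genes lower. This difference between the lines was not tested. In SKNMC at 50 nM the direction depended on the scaling, since scaling each library to its 75th percentile gave 0.15. In the deposited table the whole span of ZFP36L2 lies within that of THADA on the same strand. THADA had log2 fold changes of -0.79 and -0.99 in A673 and -0.53 and -0.73 in SKNMC, and its part in the ZFP36L2 values was not tested.

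Within each library, ratios between members do not depend on how libraries are scaled, and they are given here for the ZFP36 family. ZFP36 made up 9.18% of the summed FPKM of the 3 genes with DMSO in A673, 12.0% at 50 nM and 29.7% at 200 nM. The SKNMC shares were 9.20%, 13.9% and 28.4%. The shares of both lines were thus close to each other at each dose. ZFP36L2 made up 50.2% with DMSO, 27.3% with 50 nM and 18.6% with 200 nM in A673, and 33.0%, 28.0% and 24.9% in SKNMC. ZFP36L1 was the largest component at 200 nM in both lines, with 51.7% and 46.7%. The family sum was 44.7 FPKM with DMSO, 44.5 with 50 nM and 21.9 with 200 nM in A673, and 42.9, 46.0 and 33.2 FPKM in SKNMC. The FPKM ratio of ZFP36L1 to ZFP36 went from 4.42 with DMSO to 1.74 at 200 nM in A673 and from 6.28 to 1.65 in SKNMC.

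**Figure D2:**
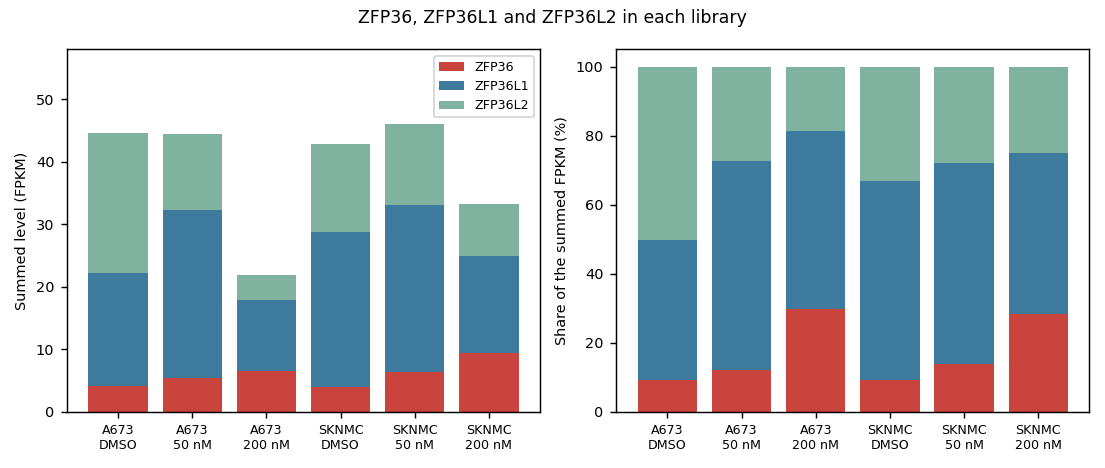
Summed FPKM of ZFP36, ZFP36L1 and ZFP36L2 in each of the 6 libraries (left, stacked bars from 0) and the percentage each gene contributes to that sum (right). The ZFP36 share was 9.18% and 9.20% with DMSO and 29.7% and 28.4% at 200 nM, while the sum was lowest at 200 nM in both lines.

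ELAVL1 (ENSG00000066044, chromosome 19, 8023463 to 8070543, minus strand) was lower with THZ1 in all 4 comparisons of the deposited values, by less than 2-fold. This is common, since 5592 of the 10574 genes active in both lines (52.9%) were lower in all 4. ELAVL1 was at 58.8 FPKM with DMSO, 50.1 with 50 nM and 47.5 with 200 nM in A673, and at 50.5, 41.2 and 41.2 FPKM in SKNMC. All 4 log2 fold changes against DMSO lay between -0.30 and -0.23, near the middle of all active genes, of which 52.2% to 64.9% had a lower value. Its direction was not stable to scaling, and in SKNMC at 200 nM it went from -0.29 to 0.27 with the 75th percentile. The FPKM ratio of ELAVL1 to the sum of the ZFP36 family was 1.32 with DMSO, 1.13 with 50 nM and 2.17 with 200 nM in A673. In SKNMC it was 1.18, 0.894 and 1.24.

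KHSRP was also close to its DMSO level at both doses. It was at 240.2 FPKM with DMSO, 257.4 with 50 nM and 213.6 with 200 nM in A673, and at 176.0, 200.5 and 161.3 FPKM in SKNMC. For 50 and 200 nM this gave log2 fold changes of 0.10 and -0.17 (A673) and 0.19 and -0.12 (SKNMC). Each of these 4 signs flipped under 1 of the 3 scalings, so no direction against DMSO can be given. The level at 200 nM was below that at 50 nM in both lines, with log2 changes of -0.27 and -0.31, and this order held under all 3 scalings.

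TIAL1 (ENSG00000151923, chromosome 10, 121334199 to 121356541, minus strand) had the same sequence of levels as ZFP36L1, with its peak at 50 nM. In A673 it was at 81.1 FPKM with DMSO, 97.5 at 50 nM and 35.0 at 200 nM, whereas SKNMC had 45.0, 61.8 and 38.6 FPKM. The corresponding log2 fold changes were 0.26 and -1.19 (A673) and 0.45 and -0.22 (SKNMC). The step from 50 to 200 nM was -1.45 in A673, with 2.27% of active genes lower, and -0.67 in SKNMC, with 18.5% lower. With the 75th percentile the A673 value at 200 nM was -0.82 and no longer reached 2-fold, and the SKNMC value turned to 0.34.

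TIA1 (ENSG00000116001, chromosome 2, 70436576 to 70475792, minus strand) encodes the close relative of TIAL1. In A673 it was at 43.0 FPKM with DMSO, 32.3 at 50 nM and 37.9 at 200 nM, whereas SKNMC had 43.9, 45.2 and 58.3 FPKM. Its log2 fold changes at the 2 doses were -0.40 and -0.18 (A673) and 0.04 and 0.40 (SKNMC). In both lines TIA1 was higher at 200 nM than at 50 nM, by 0.23 and 0.36, and this order held under all 3 scalings. The FPKM ratio of TIAL1 to TIA1, which no scaling changes, was 1.89 with DMSO, 3.02 with 50 nM and 0.924 with 200 nM in A673. It was 1.03, 1.37 and 0.662 in SKNMC. TIAL1 thus exceeded TIA1 with DMSO and at 50 nM in both lines and was below it at 200 nM in both. Of the TIA1 span, 99.9% lies within that of C2orf42 in the deposited table, on the same strand. C2orf42 was at 4.21 FPKM in A673 and 4.43 FPKM in SKNMC with DMSO and had log2 fold changes between -1.93 and -1.60, and its part in the TIA1 values was not tested.

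Counted together, few of the 7 genes changed 2-fold against DMSO. At 50 nM none was at least 2-fold lower in A673, where 15.9% of 11077 active genes were, and none in SKNMC, where 15.8% of 11896 were. At 200 nM 2 of 7 were lower in A673 (ZFP36L2 and TIAL1), against 25.3% of active genes, and 0 of 7 in SKNMC, against 27.3%. 1 member, ZFP36 in SKNMC at 200 nM, was at least 2-fold higher. At least 2-fold higher levels were found for 0.343% of active genes in A673 at 50 nM, 0.126% in A673 at 200 nM and 0.471% in SKNMC at 50 nM, and for 0 of 7 members in each of these. The members' median log2 fold change was 0.10 and -0.30 in A673 and 0.11 and -0.22 in SKNMC, and that of all active genes was -0.27 and -0.40 in A673 and -0.32 and -0.55 in SKNMC. From 50 to 200 nM, 3 of 7 were at least 2-fold lower in A673 (ZFP36L1, ZFP36L2 and TIAL1), against 7.44% of active genes, and 0 of 7 in SKNMC, against 8.39%. In this comparison of doses 0 of 7 were at least 2-fold higher in either line, where 0.117% (A673) and 0.37% (SKNMC) of active genes were. The pattern of higher than DMSO at 50 nM and lower at 200 nM in both lines was found for 3 of 7 members (ZFP36L1, KHSRP and TIAL1) and for 6.93% of genes active in both lines. It was found for 1 of 7 (ZFP36L1) with the 75th percentile, against 6.6% of these genes, and for 1 of 7 (TIAL1) with the ribosomal protein median, against 3.76%. With 7 genes these counts are a description only.

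**Figure D3:**
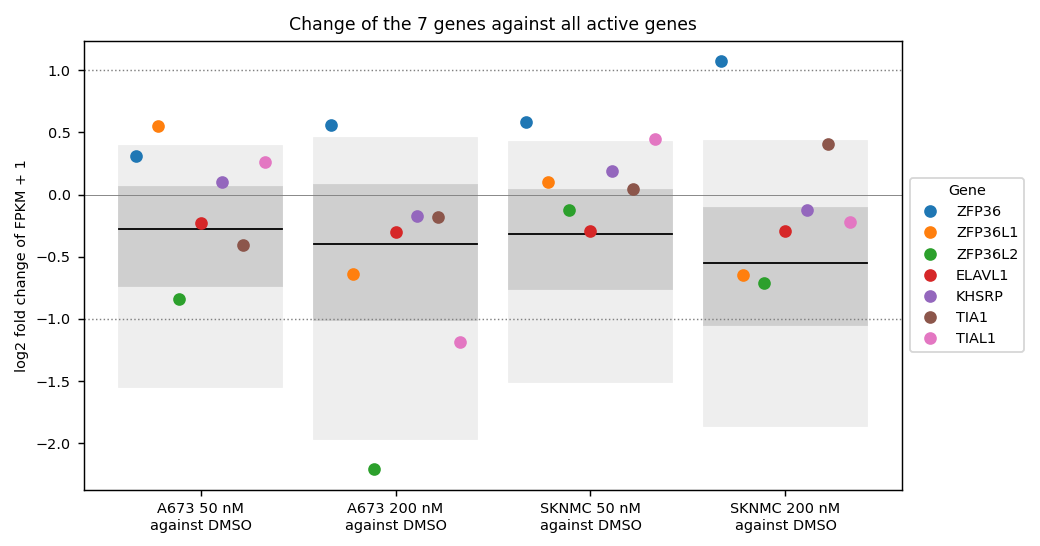
log2 fold change of FPKM + 1 against DMSO (y axis) of the 7 genes (coloured points, 1 library against 1) in the 4 comparisons, over the range of all active genes (light box, 5th to 95th percentile; dark box, middle 50%; black line, median) with 2-fold marked by dotted lines. ZFP36 lay above the light box in 3 comparisons and inside it in A673 at 50 nM, where ZFP36L1 lay above it, TIAL1 lay above it in SKNMC at 50 nM, and ZFP36L2 lay below it in A673 at 200 nM.

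The scaling of the libraries matters for these small changes. When libraries were scaled to the 75th percentile of active genes, the median log2 fold change over all of these genes shifted by 0.22 and 0.32 (A673, 50 and 200 nM) and by 0.25 and 0.48 (SKNMC). Scaling to the median of 85 ribosomal protein genes shifted it by -0.19, -0.29, -0.28 and -0.46 in the same order. In SKNMC at 200 nM, the share of active genes at least 2-fold lower went from 27.3% to 13.4% and to 50.4% under these scalings, and the share at least 2-fold higher from 0.462% to 4.33% and to 0.0925%. At 200 nM ZFP36 had the highest and ZFP36L2 the lowest value of the 7 genes in both lines. A scaling multiplies all genes of a library by the same factor, so it is no check of this order.

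**Figure D4:**
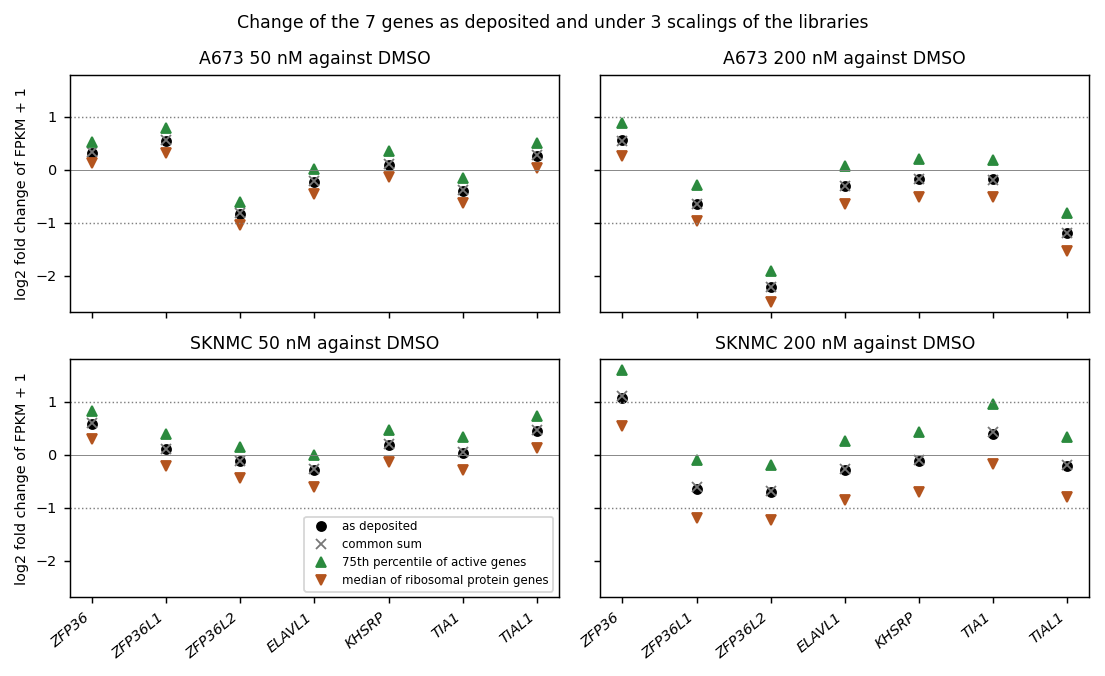
log2 fold change of FPKM + 1 against DMSO (y axis) of each of the 7 genes (x axis) in the 4 comparisons, from FPKM as deposited (circles) and after 3 scalings of the libraries (crosses, common sum; upward triangles, 75th percentile of active genes; downward triangles, median of ribosomal protein genes). ZFP36 stayed above 0 throughout, while each of the other 6 genes changed sign under a scaling in at least 1 comparison, KHSRP in all 4.

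The genes whose changes were most like those of each member were sought by the Euclidean distance over the 4 log2 fold changes against DMSO, over the 7958 genes that exceeded 5 FPKM with DMSO in each line. ZFP36 itself was under this minimum. Nearest to ZFP36 were CRIP1 (distance 0.135), the ribosomal protein gene RPS20 (0.202) and FTL, the ferritin light chain (0.248), against a median distance of 2.25. Nearest to ZFP36L1 were the Mediator gene MED30 (0.148) and NDEL1 (0.214), with a median of 1.35. Nearest to ZFP36L2 were the small GTPase gene RHOB (0.231), the centriole gene CENPJ (0.362) and the nuclear receptor gene NR2F2 (0.453), with a median of 2.16. RHOB had log2 fold changes of -0.86 and -2.38 in A673 and -0.18 and -0.85 in SKNMC. For the remaining members the nearest were SMARCE1, MSH3 and MBNL3 for ELAVL1, TOMM20, TOP2B and DDX54 for KHSRP, DMPK, STAT2 and PARP6 for TIA1, and PDE7A, COL4A3BP and USP47 for TIAL1. No member was among the nearest genes of another.

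Other RNA-binding proteins, mostly but not all binders of AU-rich or U-rich messages, were read from a list of 17 genes, of which 15 were active in each line. Their median log2 fold change was 0.04 and -0.09 in A673 and 0.06 and -0.16 in SKNMC at 50 and 200 nM, against -0.27, -0.40, -0.32 and -0.55 for all active genes. Among them, 1, 1, 2 and 2 were at least 2-fold lower, or 6.67%, 6.67%, 13.3% and 13.3%, below the 15.9%, 25.3%, 15.8% and 27.3% of all active genes. HNRNPDL was lower in all 4 comparisons (-1.70, -1.22, -1.92 and -1.59 in that order). HNRNPD, which encodes the ARE-binding protein AUF1, had -0.61 and -0.44 in A673 and -1.19 and -1.04 in SKNMC, and its level in SKNMC was 356.2 FPKM with DMSO, 155.6 at 50 nM and 172.9 at 200 nM. HNRNPA0, the third lowest, had values between -0.50 and -0.07. At the other end, YBX1 had values between 0.45 and 0.59 in all 4 comparisons. CELF1, a binder of GU-rich elements, had 1.03 in A673 and 0.60 in SKNMC at 50 nM and 0.06 and -0.16 at 200 nM. ZC3H12A, the endonuclease Regnase-1, had values between 0.04 and 0.60 at levels of 1.61 to 2.99 FPKM.

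All 30 deadenylation and decay factors of a second list, the machinery that ZFP36 proteins and KHSRP recruit, were active in both lines. Of these, 3 and 8 were at least 2-fold lower in A673 at 50 and 200 nM and 6 and 13 in SKNMC, and none was at least 2-fold higher. The shares of 10%, 26.7%, 20% and 43.3% stand against 15.9%, 25.3%, 15.8% and 27.3% of all active genes. In SKNMC at 200 nM the share was also above the background with the 75th percentile (20% against 13.4%) and the ribosomal protein median (76.7% against 50.4%). In the other comparisons the reading depended on the setting. In A673 at 200 nM the share was 16.7% against 17.3% with the 75th percentile, 46.7% against 34.5% with the ribosomal protein median and 53.3% against 41.1% at a 1.5-fold threshold. In SKNMC at 50 nM these settings gave 10% against 10.3%, 30% against 25.2% and 33.3% against 33.5%. In A673 at 50 nM they gave 6.67% against 11%, 20% against 21.3% and 33.3% against 31.8%. The medians were -0.45 and -0.63 in A673 and -0.41 and -0.91 in SKNMC, against -0.27, -0.40, -0.32 and -0.55 for all active genes. The lowest were EXOSC4, a subunit of the RNA exosome (-1.65, -1.92, -1.77 and -2.36 in A673 at 50 and 200 nM and in SKNMC at 50 and 200 nM), the decapping cofactor gene DCP1B (-1.32, -1.40, -1.89 and -1.92) and the CCR4-NOT subunit CNOT10 (-1.21, -0.96, -1.45 and -1.59). The highest was PABPC1, the cytoplasmic poly(A)-binding protein, with 0.07 and 0.09 in A673 and 0.33 and 0.71 in SKNMC. The decapping enzyme gene DCP2 (0.28, -0.36, 0.54 and -0.46) and the deadenylase gene PAN2 (-0.45, 0.40, -0.39 and 0.36) followed, with opposite orders of the doses.

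ZFP36 proteins are switched off by phosphorylation through p38 and its target MK2, after which 14-3-3 proteins bind them, and PP2A reverses this. In a list of 17 such genes, all active in both lines, 1 and 4 were at least 2-fold lower in A673 at 50 and 200 nM and 2 and 6 in SKNMC, and none was 2-fold higher. These are 5.88%, 23.5%, 11.8% and 35.3%, against 15.9%, 25.3%, 15.8% and 27.3% of all active genes. As deposited, only in SKNMC at 200 nM was the share above the background, and this depended on the setting. It held with a common sum (35.3% against 26.2%) but not with the 75th percentile (5.88% against 13.4%). The ribosomal protein median gave 47.1% against 50.4%, and a 1.5-fold threshold 41.2% against 48%. In A673 at 200 nM the share was above the background with the ribosomal protein median (35.3% against 34.5%) but not with the other scalings. The medians were 0.03 and -0.01 in A673 and 0.05 and -0.27 in SKNMC, each above that of all active genes. DUSP1, the phosphatase that inactivates p38, was lowest (-1.78, -2.25, -1.01 and -1.46 in A673 at 50 and 200 nM and in SKNMC at 50 and 200 nM). The 14-3-3 gene YWHAH had -0.89 and -1.23 in A673 and -1.02 and -1.77 in SKNMC, and MAPK14, the gene of p38 alpha, had -0.41 and -1.37 in A673 and -0.22 and -1.14 in SKNMC. The highest were PPP2R1A, MAPK11 and YWHAQ, all between -0.11 and 0.53.

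Messages known to carry AU-rich elements were read from a list of 30 genes, of which 23 were active in A673 and 19 in SKNMC. Of these, 4 and 8 were at least 2-fold lower in A673 at 50 and 200 nM and 5 and 5 in SKNMC, and 1, 3, 1 and 2 were at least 2-fold higher, in that order. The lower shares of 17.4%, 34.8%, 26.3% and 26.3% stand against 15.9%, 25.3%, 15.8% and 27.3% of all active genes, of which 0.343%, 0.126%, 0.471% and 0.462% were higher. The medians were -0.60 and -0.49 in A673 and -0.61 and -0.87 in SKNMC, each below that of all active genes. The 3 highest were JUNB (1.55, 2.02, 1.56 and 2.27), IER3 (0.52, 1.28, 0.63 and 2.16) and FOS (0.92, 1.75, 0.41 and 0.67). JUNB and FOS encode subunits of the transcription factor AP-1. JUN, another AP-1 subunit in this list, named after its values were seen, had -0.60, -1.32, -0.61 and -0.96. Each of the 3 highest was, like ZFP36, higher at 200 nM than at 50 nM in both lines. The JUNB level was 12.0 FPKM with DMSO, 37.2 with 50 nM and 51.9 with 200 nM in A673, and 27.1, 81.9 and 134.6 FPKM in SKNMC. Among the lowest were DUSP1, whose values are given above, and CCNE2, cyclin E2 (-1.17, -1.62, -1.26 and -1.79).

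**Figure D5:**
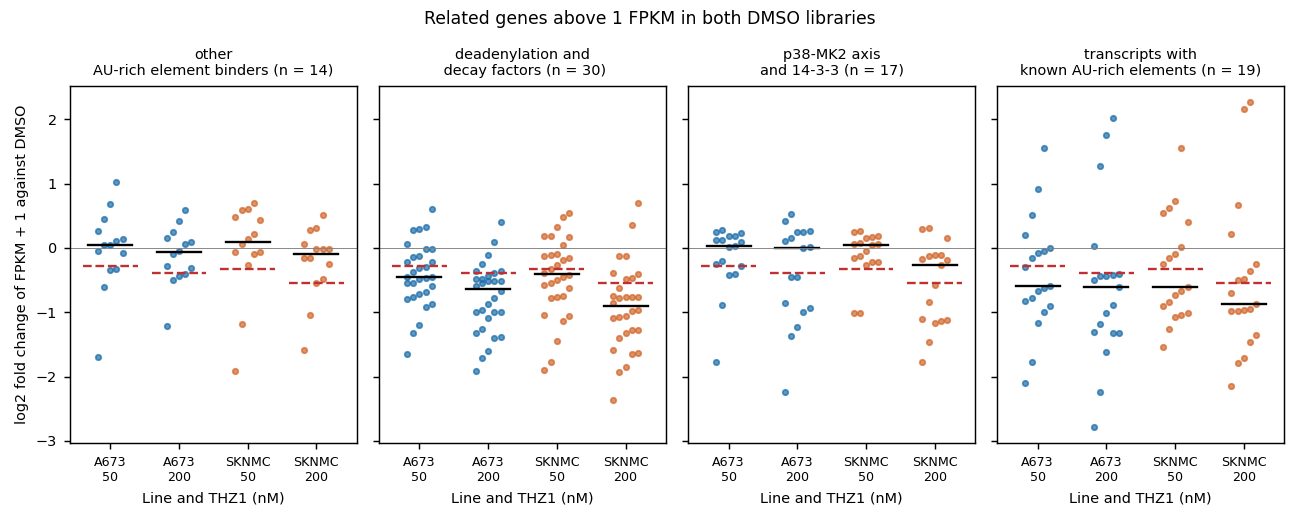
log2 fold change of FPKM + 1 against DMSO (y axis) of the genes of the 4 related lists that were above 1 FPKM in both DMSO libraries, 1 point per gene, in A673 (blue) and SKNMC (orange) at 50 and 200 nM THZ1 (x axis). Black lines are medians of the list and dashed red lines medians of all active genes; the highest points of the right panel at 200 nM are JUNB, at 2.02 in A673 and 2.27 in SKNMC.

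Across the transcriptome, genes with the nonamer in the 3′ UTR of their longest transcript had shares of 2-fold lower levels close to those of genes without it. In A673 at 50 nM, 163 of 1073 active genes with a nonamer (15.2%) were at least 2-fold lower, and 15.8% of 9552 without one. At 200 nM the shares were 27.4% and 25.3%. In SKNMC they were 14.7% and 15.6% at 50 nM and 27.2% and 27.6% at 200 nM. The median log2 fold change differed most in A673 at 200 nM, with -0.58 for genes with a nonamer and -0.37 for those without. Genes with a nonamer had longer 3′ UTRs (median 3232 bases against 1334.5 in A673), so the medians were also read by length class. In A673 at 200 nM they were -0.61 with and -0.16 without a nonamer for 3′ UTRs under 1000 bases, -0.51 and -0.44 from 1000 to 2000 bases, -0.65 and -0.51 from 2000 to 4000 bases, and -0.54 and -0.53 for longer ones. Lengths were not matched within a class, so a difference in length within it cannot be told apart from the nonamer. The set of genes with a nonamer holds ZFP36, ZFP36L2 and ELAVL1 but not ZFP36L1, whose longest transcript has another 3′ UTR than the canonical one.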

How the data were processed

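RNA was measured in 6 libraries, 1 per condition. Per the study's methods, the authors made TruSeq libraries, read them as paired ends of 100 bases, mapped the reads with STAR (hg19, Ensembl 75 junctions) and computed FPKM with StringTie. The submitters' processing notes list Cufflinks beside STAR, and versions are not given in the sources used here. The deposited FPKM values of 20311 protein-coding and 7109 lincRNA genes were used as they stand. Columns of log2 fold changes computed by the authors for their own THZ1 comparisons are in the deposited table and were not used. Read counts could not be recovered, since no step common to low FPKM values was found (the commonest ratio to DMSO covered 1.02% to 1.35% of low genes), so depth is unknown. How overlapping genes and strand were handled is not given in the sources used here.

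Log2 fold changes were computed with a pseudocount of 1 and a 2-fold threshold (Python 3.11.15, pandas 2.3.3), over genes above 1 FPKM in the DMSO library of the line. With 1 library per condition, no test was run. Deposited start positions were counted from 0 (with 1 added, 14261 of 26108 match the GENCODE start, and 416 without), so 1 was added. The 7 members, the related lists and the comparisons were chosen with earlier results of these data known. The named genes were the members, the 3 genes nearest to each, and the 3 lowest and 3 highest of each list by the mean of the 4 log2 fold changes, among those above 1 FPKM in both DMSO libraries. Alternatives were a pseudocount of 0.1, 3 scalings of the libraries (to a common sum, the 75th percentile of active genes, or the median of 85 ribosomal protein genes), a 1.5-fold threshold, no filter on low values, at least 2 heptamers, and, chosen after seeing the data, the nonamer of the canonical transcript. The fold changes, the scalings and the counting of motif copies were tested on simulated data. PECAM1, an endothelial marker, had no row under that symbol. A few genes that these rules or marker lists name are not reported here.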

Additional observations from a re-analysis of the deposited data

Results flagged for a closer look

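TIA1 had opposite directions against DMSO in the 2 lines, which is what flagged it: A673 had log2 fold changes of -0.40 (50 nM) and -0.18 (200 nM), and SKNMC of 0.044 and 0.40. Without replicates this difference was not tested. With the 75th percentile the A673 value at 200 nM was 0.19, and with the ribosomal protein genes the SKNMC values were -0.28 and -0.17, so the opposite signs did not hold at both doses under either scaling. Under all 3 scalings the log2 fold change was higher in SKNMC than in A673 at both doses. Of the 10574 genes active in both lines, 93 (0.88%) had this pattern of signs and 464 (4.39%) the reverse one.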

How the results depend on the processing

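With a pseudocount of 0.1 or a common sum, 0 of 42 member log2 fold changes changed sign and 0 changed their side of 2-fold. The 75th percentile changed 9 signs and 1 call of 42, and the ribosomal protein median 6 signs and 4 calls. The number of members at least 2-fold lower went from 2 to 1 in A673 at 200 nM with the 75th percentile. With the ribosomal protein median it went from 0 to 1 in A673 at 50 nM (ZFP36L2, -1.05) and from 0 to 2 in SKNMC at 200 nM (ZFP36L1 at -1.19 and ZFP36L2 at -1.22), and with a 1.5-fold threshold from 0 to 1 and from 0 to 2 in these comparisons. In the order A673 at 50 and 200 nM and SKNMC at 50 and 200 nM, the decay factors lower were 2, 5, 3 and 6 with the 75th percentile, 6, 14, 9 and 23 with the ribosomal protein median and 10, 16, 10 and 22 at 1.5-fold. Over all active genes the shares lower were 11%, 17.3%, 10.3% and 13.4% in the first of these settings, 21.3%, 34.5%, 25.2% and 50.4% in the second and 31.8%, 41.1%, 33.5% and 48% in the third, so the counts of every list are to be read against a moving background. The other binders lower were 1, 0, 1 and 1, then 1, 1, 2 and 4, then 2, 1, 3 and 3 in these settings. The p38 and 14-3-3 genes lower were 1, 2, 0 and 1, then 2, 6, 2 and 8, then 2, 6, 2 and 7, and with a common sum 1, 4, 1 and 6. The messages with AU-rich elements lower were 2, 3, 1 and 3, then 7, 10, 7 and 11, then 12, 11, 10 and 11. With the 75th percentile these are 8.7%, 13%, 5.26% and 15.8%, below the background of that setting except in SKNMC at 200 nM. With the ribosomal protein median they are 30.4%, 43.5%, 36.8% and 57.9%, above its background in each comparison. The side of the background on which this list lay thus depended on the scaling. Genes with the nonamer lower were 119, 192, 100 and 145, then 232, 432, 269 and 606, then 348, 534, 360 and 591. They are counted among 1073 such active genes in A673 and 1132 in SKNMC. As deposited, the larger set of genes with at least 2 heptamers (1760 in A673, 1865 in SKNMC) had 216, 482, 216 and 495 lower. These are 12.3%, 27.4%, 11.6% and 26.5%, against 15.9%, 25.3%, 15.8% and 27.3% of all active genes as deposited. No replicate could be left out. A fit of dose with the lines as blocks, which would count the 2 lines as replicates of a dose, was not run. Without read counts, no interval for counting error can be given, and the changes of ZFP36 (3.95 FPKM with DMSO in SKNMC) and ZFP36L2 (4.07 FPKM at 200 nM in A673) rest on the lowest levels.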

Other observations

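The neuronal relatives of ELAVL1 differed between the lines, and they are named here after their values were seen. In SKNMC, ELAVL4 was at 5.27 FPKM with DMSO, 2.83 at 50 nM and 3.12 at 200 nM, and it was between 0.019 and 0.029 FPKM in A673. ELAVL3 was at 1.10, 0.609 and 0.717 FPKM in A673 and at or below 0.133 FPKM in SKNMC. ELAVL2 was listed at 0 in the 3 A673 libraries and was at or below 0.117 FPKM in SKNMC. ELAVL1 was therefore the most abundant ELAVL transcript in all 6 libraries.

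Genes with the nonamer were also read by the length of their 3′ UTR, and of the 4 classes the shortest showed the widest gap at 50 nM. Among 3′ UTRs under 1000 bases, 30 of 115 active genes with a nonamer (26.1%) were at least 2-fold lower in A673 at 50 nM, against 14.9% of 3917 without one. In SKNMC it was 30 of 122 (24.6%) against 15.4% of 4162. At 200 nM the shares of this class were 28.7% against 21.7% in A673 and 28.7% against 25.2% in SKNMC. Between 1000 and 2000 bases the shares at 50 nM were 18.4% and 19.2% in A673 and 17.5% and 17.1% in SKNMC. From 2000 to 4000 bases they were 14.4% with and 16.0% without a nonamer in A673, and 14.5% and 16.1% in SKNMC. For longer 3′ UTRs they were 11.4% and 12.0% in A673 and 10.8% and 12.3% in SKNMC, so the gap was not seen in these classes. Lengths were not matched within a class, and no test was run on these differences.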
